A study of Mus musculus with 8 samples.

Results

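The voltage-gated sodium channels, the voltage-gated calcium channels and the hyperpolarization-activated cyclic nucleotide-gated (HCN) channels of the mouse were examined in the prefrontal cortex after injection of hairpin viruses directed at chromatin genes. The genes were taken by a rule on symbols, which was set with earlier results of these data known. Of the 23393 gene symbols counted, 44 met the rule. They are 10 pore-forming sodium channel genes (Scn followed by a number and a, with Scn2a1 for the gene also called Scn2a), 4 sodium channel beta subunit genes, 10 calcium channel alpha1 genes (Cacna1a to Cacna1i and Cacna1s), 4 alpha2delta genes (Cacna2d1 to Cacna2d4), 4 calcium channel beta genes (Cacnb1 to Cacnb4), 8 gamma genes (Cacng1 to Cacng8) and 4 HCN genes. RNA came from the bulk lysate of the prefrontal cortex (PFC) of C57BL6/J mice, given in the design text as 6 to 8 weeks old, and every animal had received AAV9, an adeno-associated virus vector. There were 4 groups of 2 libraries: mice given GFP virus as controls of the Adnp set, mice whose titles name Adnp (called shAdnp here), mice given GFP virus as controls of the Pogz set, and mice whose titles name Pogz (called shPogz here). No uninjected group was analysed, and neither the promoter of the hairpin nor the cells it reached is given in the sources used here. The labels describe the 2 libraries of a group as biological duplicates, while the design text speaks of 3 knockdown mice and 2 control mice. In both knockdown groups the treatment label names a hairpin against ASH1L, so shAdnp and shPogz stand for the titles throughout.

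Voltage-gated sodium channels open on depolarization and carry the rising phase of the action potential, and their beta subunits set gating and placement in the membrane. Voltage-gated calcium channels turn depolarization into calcium entry, which drives transmitter release at terminals and bursting, dendritic spikes and signalling to the nucleus elsewhere. Their alpha2delta, beta and gamma partners control delivery to the membrane, gating and, for several gamma proteins, the trafficking of AMPA-type glutamate receptors. HCN channels open on hyperpolarization, carry the current that sets resting potential and dendritic integration in cortical pyramidal neurons, and bind cyclic nucleotides.

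The libraries held 27501722 to 69002749 counts over named genes, and the 44 channel genes took 0.453% to 0.599% of them. Adnp was at 137 and 111 CPM (the count relative to the scaled total of its library, the unit used below) with GFP against 87.2 and 118 CPM in shAdnp, so the second shAdnp library lay within the control range (log2 fold change -0.27, SE 0.19, unadjusted p = 0.183, edgeR adjusted p = 0.768). Exons of another annotated gene on the same strand, Gm20716, cover 82.1% of the exon bases of Adnp, so its level is uncertain. Pogz was at 54.4 and 53.1 CPM with GFP against 49.0 and 37.3 CPM with shPogz, below both controls in both libraries (log2 fold change -0.32, SE 0.16, unadjusted p = 0.0778, edgeR adjusted p = 0.667). Ash1l, the gene of the treatment label, had log2 fold changes of -0.10 and 0.11 in the 2 sets. A ribosomal RNA precursor, Rn45s, took 7.62% of the counts of the first shAdnp library and 0.134% to 0.740% elsewhere. A multidimensional scaling plot was made on the genes that differed most between each pair of libraries. On its first axis the first GFP library of the Adnp set (-2.47) and the second shPogz library (2.15) lay at the ends. The other 6 were between -0.66 and 0.80. All 16 neuronal marker genes were detected, with a summed level of 8374 to 12492 CPM, whereas 9 skeletal muscle genes summed to 31.6 to 53.1 CPM. In bulk tissue, fewer cells of a type and less RNA per cell cannot be told apart.

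Levels were compared between genes as CPM per kilobase of annotated exon, averaged over the 8 libraries, and are shown in the plot of levels by family. Among the pore-forming sodium channel genes the order on that scale was led by Scn2a1, the main channel of excitatory cortical neurons, at 69.1, followed by Scn8a, the channel of mature axon initial segments and nodes, at 31.0 and Scn1a, the main channel of fast-spiking interneurons, at 26.7 CPM per kb. Scn2a1 lay above Scn8a in every library, whereas the ranges of Scn8a and Scn1a overlapped. Scn3a, best known from the developing brain, followed at 8.64 CPM per kb and Scn7a, a sodium-sensing channel, at 2.14 CPM per kb. Scn9a, a channel of peripheral sensory neurons, stood at 0.435 CPM per kb from 202 to 431 counts per library. Other channels of sensory neurons and skeletal muscle were near the floor: Scn10a stood at 0.0347, Scn11a at 0.0266 and Scn4a at 0.0133 CPM per kb, with 6 to 20, 3 to 22 and 0 to 12 counts per library. Of the beta subunits, Scn2b (93.1 CPM per kb) was far above Scn3b (21.9 CPM per kb) and Scn4b (15.6 CPM per kb), and the ranges of neighbours in this order did not overlap.

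The calcium channel alpha1 genes formed a graded series on the same scale rather than separate steps. Cacna1e, which encodes the R-type channel, stood at 18.4 CPM per kb, Cacna1b (N-type) at 14.1, Cacna1a (P/Q-type) at 13.0 and the T-type genes Cacna1i and Cacna1g at 12.1 and 7.87 CPM per kb. The L-type genes Cacna1d and Cacna1c were at 5.35 and 4.45 CPM per kb, on either side of the third T-type gene, Cacna1h, at 4.96 CPM per kb. Each of these 8 genes overlapped its neighbour in range, and a gap appeared only before Cacna1s (0.232 CPM per kb), the skeletal muscle channel, and Cacna1f (0.135 CPM per kb), the retinal one. Cacna2d1 led the alpha2delta genes at 29.0 CPM per kb, above Cacna2d3 (12.7), Cacna2d2 (3.36) and Cacna2d4 (0.379 CPM per kb) with no overlap between neighbours. Cacnb4 and Cacnb3 overlapped at 45.3 and 44.5 CPM per kb and lay above Cacnb1 (17.1) and Cacnb2 (3.91 CPM per kb). The AMPA receptor partners Cacng3, Cacng8, Cacng7 and Cacng2 led the gamma genes at 18.9, 10.6, 8.98 and 5.70 CPM per kb, the first pair overlapping in range and the second pair not. The muscle genes Cacng6 and Cacng1 were at 0.255 and 0.045 CPM per kb. Hcn2 stood at 20.2 CPM per kb, above Hcn3 (2.53) and Hcn4 (0.348 CPM per kb), each range clear of the next.

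**Figure D1:**
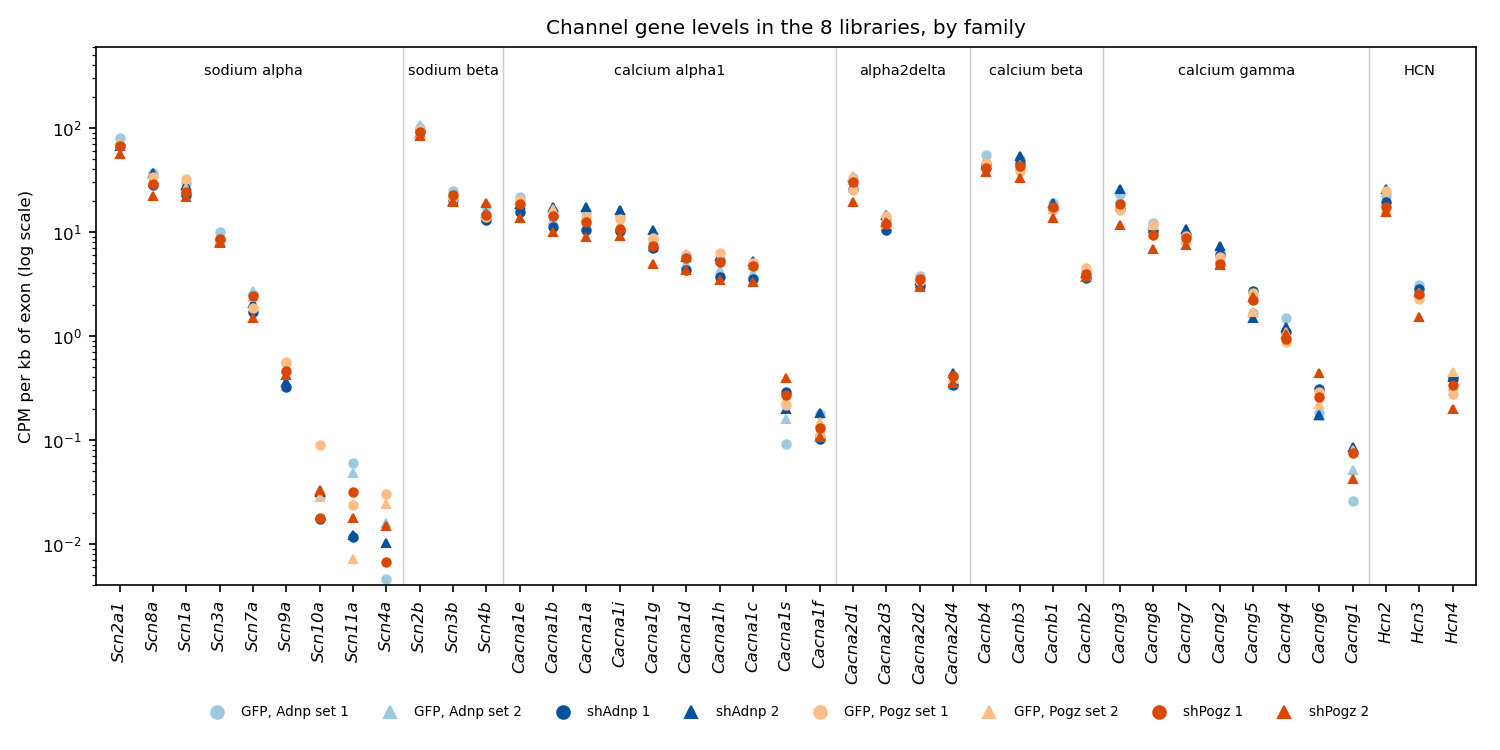
CPM per kilobase of annotated exon on a log axis for 41 channel genes, grouped by family and ordered by mean level. Each point is 1 of the 8 libraries, and libraries at 0 counts (in Scn4a and Cacng1) are not drawn. Scn2b and Scn2a1 are the highest drawn, and the muscle and sensory neuron genes lie far below them.

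Several of these genes are neighbours on the chromosome in build GRCm38 (mm10, GENCODE M21). Scn3a (chr2:65457118-65567627), Scn2a1 (chr2:65620771-65767447), Scn1a (chr2:66270778-66440840), Scn9a (chr2:66480080-66634962) and Scn7a (chr2:66673425-66784914) form 1 cluster. Their levels run from 69.1 CPM per kb for Scn2a1, the highest pore-forming sodium channel gene, to 0.435 CPM per kb for Scn9a. Scn2b (chr9:45117782-45130070) and Scn4b (chr9:45138395-45154152) also lie side by side, as do Cacng7 (chr7:3332955-3368221), Cacng8 (chr7:3390683-3415648) and Cacng6 (chr7:3424195-3435667). Exons of another gene on the opposite strand cover 19.98% of the exon bases of Cacna1s, 17.1% of Hcn3 and 16.0% of Cacnb4, and because the strand setting of the counting is not given, the values of these 3 genes are uncertain.

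RefSeq start sites on GRCm38.p6 were found for 32 of the 44 genes, giving 43 windows of the 250 bases upstream of a start. For 36 windows the bases just after the start occur within an annotated transcript of the gene, which need not begin there. The windows of 3 genes are printed as examples of the patterns seen in shPogz: Scn1a and Cacna1b, which were lower in both shPogz libraries than in both controls, and Scn4b, the sodium channel gene whose highest level was in a shPogz library. The RefSeq window of Cacng8, the gene with the smallest p in that comparison, lies wholly inside the annotated gene and is not printed. The 3 printed windows read 5′ to 3′ on the strand of the gene. Scn1a is at chr2:66440838-66441087 and Cacna1b at chr2:24763153-24763402, both on the minus strand. Scn4b is at chr9:45138374-45138623 on the plus strand. Most of the Scn4b window also lies inside the annotated gene, which starts at chr9:45138395, so it is upstream only of the RefSeq start. Capitals mark matches on either strand to the GC box GGGCGG or to the CCAAT box, spelled as its name. The TATA box, searched as TATAAA, had no match in these 3 windows. Nor did the E-box, searched as CACGTG.
Scn1a: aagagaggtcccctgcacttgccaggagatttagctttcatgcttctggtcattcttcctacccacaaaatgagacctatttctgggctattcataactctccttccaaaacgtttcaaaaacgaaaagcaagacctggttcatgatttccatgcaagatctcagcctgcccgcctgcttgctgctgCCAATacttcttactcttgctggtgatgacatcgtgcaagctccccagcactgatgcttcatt
Cacna1b: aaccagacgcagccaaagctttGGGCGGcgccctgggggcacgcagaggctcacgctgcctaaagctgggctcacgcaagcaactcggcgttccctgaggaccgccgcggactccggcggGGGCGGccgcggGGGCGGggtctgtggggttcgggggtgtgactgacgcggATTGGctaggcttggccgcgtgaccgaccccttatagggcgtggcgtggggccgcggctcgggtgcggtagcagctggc
Scn4b: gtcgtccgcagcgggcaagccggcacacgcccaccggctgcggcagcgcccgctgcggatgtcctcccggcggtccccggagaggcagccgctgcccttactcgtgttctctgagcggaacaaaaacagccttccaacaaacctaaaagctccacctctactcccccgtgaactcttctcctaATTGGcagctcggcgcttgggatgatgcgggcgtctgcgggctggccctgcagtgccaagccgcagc

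The Scn1a window had a G and C content of 46.8% and a single match, to the CCAAT box. The Cacna1b window was at 72.0% G and C with 3 GC boxes and 1 CCAAT box, and the Scn4b window at 66.0% with 1 CCAAT box. Among the 43 channel gene windows, 17 (39.5%) held a GC box, 10 (23.3%) a CCAAT box, 2 (4.7%) a TATA box and 0 an E-box. Among all 32851 RefSeq windows of this length the shares were 32.7%, 33.8%, 12.4% and 6.0%. These are counts of letters, and a match is not a measured binding site.

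The first comparison asked which channel genes differ between shAdnp and the GFP controls of its set. Among channel genes with a mean of at least 5 CPM, 8 were lower in both shAdnp libraries than in both controls, with log2 fold changes from -0.47 to -0.17, among them 6 sodium channel genes and Cacnb4. In contrast, the calcium channel alpha1 genes showed no common direction. None of the 43 genes tested passed an adjusted p of 0.05 in edgeR's quasi-likelihood test (percent called over all genes, 0%), nor in DESeq2 or limma-voom. At an unadjusted p under 0.05, 4 channel genes were lower (background 1.69% of all genes tested) and 1 was higher (background 6.67%). The libraries of the 2 groups did not overlap for 9 genes lower in shAdnp (background 21%) and 3 genes higher (background 20.4%), so the share lower is near the background and the share higher is under it. The fitted log2 fold change was below 0 for 30 of the 43 genes, with a median of -0.05, against 52.3% and -0.01 over all genes. The gene left out by the filter on low counts, Cacng1, had 0 to 7 counts per library.

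Hcn2 (chr10:79716634-79736108), an HCN channel of broad expression in the brain, was at 71.0 and 61.4 CPM with GFP against 62.7 and 83.0 CPM with shAdnp, with the first shAdnp library inside the control range and the second above it (log2 fold change 0.14, SE 0.20). Hcn3 and Hcn4 had log2 fold changes of -0.10 and 0.14, and the HCN median was 0.02.

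Of the 14 sodium channel genes, 13 had a fitted value below 0 (52.3% of all genes), and 7 were lower in both shAdnp libraries than in both controls (21% of all genes). Scn3a was at 125 and 116 CPM with GFP against 105 and 99.0 CPM with shAdnp, with no overlap and a log2 fold change of -0.24 (SE 0.10, unadjusted p = 0.0396, edgeR adjusted p = 0.556). Scn2a1 was at 1019.5 and 983 CPM against 859 and 849.9 CPM, again without overlap (log2 fold change -0.23, SE 0.13, unadjusted p = 0.0993, edgeR adjusted p = 0.7). Scn7a had the widest difference of the expressed sodium channel genes, at 18.6 and 19.8 CPM with GFP against 12.6 and 15.2 CPM with shAdnp (log2 fold change -0.47, SE 0.23, unadjusted p = 0.0724, edgeR adjusted p = 0.653). Scn1a and Scn8a, by contrast, were low only in the first shAdnp library: Scn1a was at 328 and 311 CPM with GFP against 251 and 318 CPM with shAdnp (log2 fold change -0.17, SE 0.15). Scn8a was at 575 and 468 CPM and 442 and 579.8 CPM (log2 fold change -0.03, SE 0.18). Scn11a (chr9:119753759-119825456), a channel of pain-sensing neurons, had 22 and 18 counts in the controls and 4 and 4 in shAdnp, too few to set a level (unadjusted p = 0.0217, edgeR adjusted p = 0.457).

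Among the beta subunits, Scn3b (chr9:40269217-40291618), which slows inactivation and aids delivery of the channel to the surface, was at 136 and 132 CPM with GFP against 111 and 108 CPM with shAdnp. The shAdnp libraries were both lower, with a log2 fold change of -0.29 (SE 0.11, unadjusted p = 0.023, edgeR adjusted p = 0.467). Scn2b was at 461 and 493 CPM against 432 and 419 CPM. Scn4b was at 88.6 and 80.2 CPM against 65.4 and 76.0 CPM, and both genes were lower without overlap, with log2 fold changes of -0.17 (SE 0.11) and -0.25 (SE 0.14).

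Most calcium channel alpha1 genes differed more between the 2 shAdnp libraries than between the groups. Cacna1g (chr11:94408391-94474198), a T-type gene, was at 86.8 and 72.6 CPM with GFP against 71.7 and 107 CPM with shAdnp, with the second library above both controls. Cacna1e (chr1:154390731-154884501) was at 552 and 456 CPM and 397 and 465 CPM. In 9 of the 10 alpha1 genes the first shAdnp library was below both controls, while the second was above both in 7 of those 9, and the family median was -0.01. Cacna1s (chr1:136052750-136119822) had the only value past an unadjusted p of 0.05 in the higher direction, at 0.605 and 1.05 CPM with GFP against 1.88 and 1.30 CPM with shAdnp (log2 fold change 0.94, SE 0.39, unadjusted p = 0.039, edgeR adjusted p = 0.554), levels at which 37 to 108 reads were counted. Cacnb4 (chr2:52428320-52676831), the leading beta subunit, was at 488 and 441 CPM against 401 and 406 CPM without overlap (log2 fold change -0.20, SE 0.11, unadjusted p = 0.0887, edgeR adjusted p = 0.688). Cacna2d1 (chr5:15934691-16374511), a target of gabapentin-type drugs, was at 411 and 389 CPM and 318 and 416 CPM, so the second shAdnp library was above both controls. Cacng3 (chr7:122670492-122769393) was at 63.7 and 57.6 CPM with GFP against 45.8 and 71.1 CPM with shAdnp, and Cacng7 at 22.7 and 20.6 CPM and 22.7 and 26.0 CPM.

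The value of the channel genes as a list in the Adnp set rested on single libraries. Without the first shAdnp library the median over the channel genes was 0.07 with 15 of 43 below 0, and without the second it was -0.26 with 37 below 0. Without the first GFP library of the set, the median was 0.04 with 17 below 0. Beside these values, the summed neuronal markers were at 12492 and 12075 CPM with GFP against 10975 and 11538 CPM with shAdnp (median log2 fold change -0.08, 13 of 16 below 0). The summed microglial markers were at 682 and 991 CPM and 2659 and 1689 CPM (15 of 15 genes above 0, median 1.19). The oligodendrocyte markers summed to 2665 and 3967 CPM in the controls and to 4294 and 2093 CPM in shAdnp. The part of these markers in the channel gene values was not tested.

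**Figure D2:**
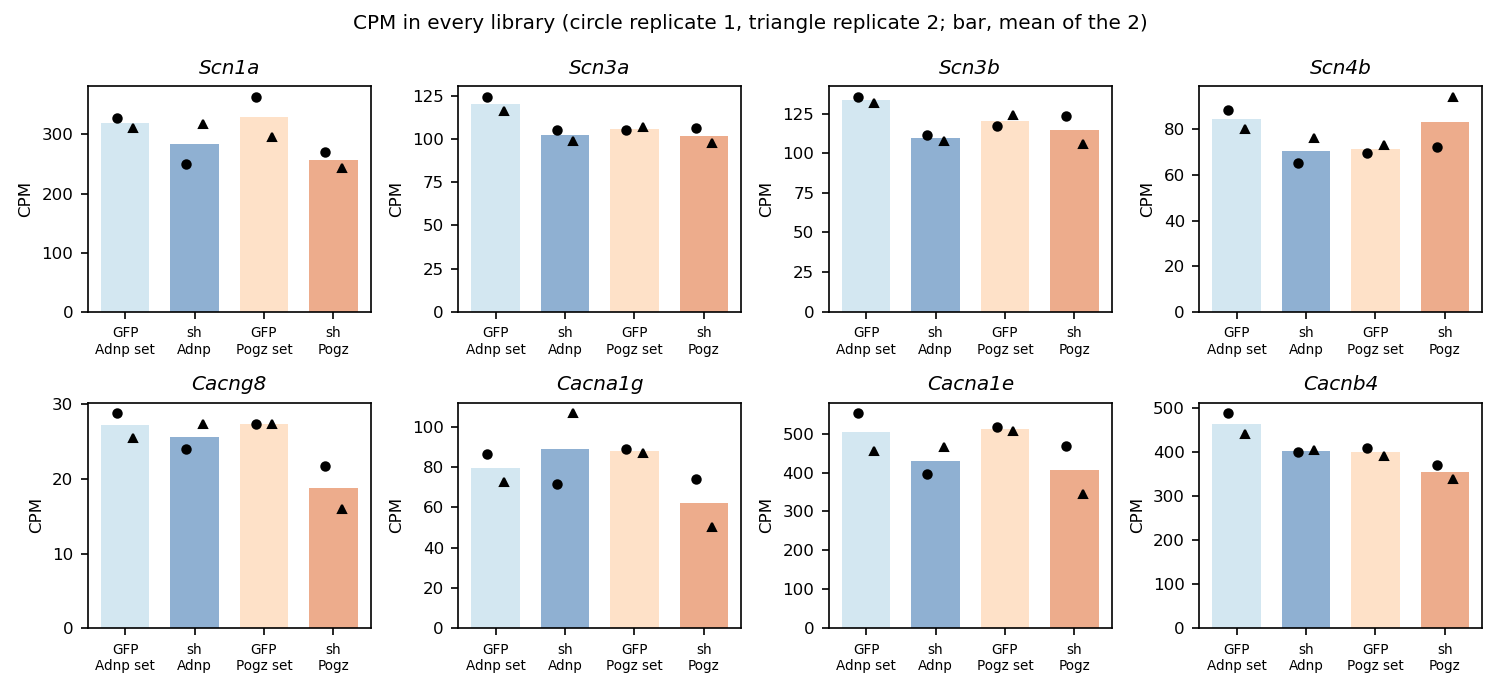
CPM of 8 channel genes in every library, with circles for replicate 1, triangles for replicate 2 and bars, from 0, for the mean of the 2 libraries of a group. Cacnb4 is lower in both knockdown libraries than in both controls within each set, Cacng8 is lower without overlap in shPogz but not in shAdnp, and the highest Scn4b value, 94.3 CPM, is the second shPogz library.

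The second comparison set shPogz against the GFP controls of its own set. Nearly all channel genes had fitted values below 0. Among those with a mean of at least 5 CPM, the AMPA receptor partner Cacng8 and the interneuron channel Scn1a had the smallest unadjusted p in edgeR. The 8 calcium channel alpha1 genes at that level had log2 fold changes from -0.50 to -0.26. None of the 43 genes tested passed an adjusted p of 0.05 in edgeR (percent called over all genes, 0%), DESeq2 or limma-voom. At an unadjusted p under 0.05, 3 channel genes were lower (background 2.65%) and 0 were higher (background 4.05%). The libraries did not overlap for 17 genes lower in shPogz (background 21.3%) and 1 gene higher (background 19%). Values below 0 were fitted for 38 of 43 genes, with a median of -0.17, against 53.6% and -0.02 over all genes.

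Cacng8 (chr7:3390683-3415648), a hippocampal and cortical partner of AMPA receptors, was at 27.4 and 27.3 CPM with GFP against 21.7 and 16.0 CPM with shPogz. It had the smallest p of the channel genes, with a log2 fold change of -0.54 (SE 0.16, unadjusted p = 0.00725, edgeR adjusted p = 0.667) and a 95% confidence interval of -0.89 to -0.18. Cacng7, its neighbour on the chromosome, was at 22.6 and 21.3 CPM with GFP against 21.2 and 18.2 CPM with shPogz, both lower by a small margin (log2 fold change -0.15, SE 0.13). Cacng3, the most abundant gamma gene per length, was at 45.6 and 52.1 CPM and 51.9 and 32.1 CPM, so that the first shPogz library lay inside the control range and the second well below it. The remaining gamma genes tested had log2 fold changes from -0.10 for Cacng2 to 0.47 for Cacng6.

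Scn1a was at 364 and 296 CPM with GFP against 270.0 and 244 CPM with shPogz. Both shPogz libraries were the lower ones, at a log2 fold change of -0.36 (SE 0.15, unadjusted p = 0.0342, edgeR adjusted p = 0.667), and the 2 controls differed by more than the 2 knockdown libraries. Scn8a followed, at 536 and 503 CPM with GFP against 456 and 347 CPM with shPogz (log2 fold change -0.37, SE 0.18, unadjusted p = 0.0661, edgeR adjusted p = 0.667). Scn2a1 was at 847 and 914 CPM with GFP against 860.4 and 709 CPM with shPogz, with the first shPogz library inside the control range (log2 fold change -0.17, SE 0.13). Scn3a, at 105 and 107 CPM and 106 and 97.6 CPM, differed little (log2 fold change -0.06, SE 0.10). The beta subunits had smaller values: Scn3b was at 117 and 124 CPM against 123 and 106 CPM, and their family median was -0.07 where that of the pore-forming genes was -0.30.

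All 8 calcium channel alpha1 genes with a mean of at least 5 CPM were lower in both shPogz libraries than in both controls (21.3% of all genes), and the family median was -0.33. Cacna1g, the gene with the largest difference among them, was at 89.1 and 87.2 CPM with GFP against 74.1 and 50.3 CPM with shPogz (log2 fold change -0.50, SE 0.23, unadjusted p = 0.0606, edgeR adjusted p = 0.667). Cacna1e was at 516 and 507 CPM and 469 and 346 CPM (log2 fold change -0.33, SE 0.16, unadjusted p = 0.0743, edgeR adjusted p = 0.667). In the presynaptic genes Cacna1b and Cacna1a, as in the other alpha1 genes at that level, the second shPogz library was below the first. Cacna1b (chr2:24603887-24763152) was at 143 and 164 CPM with GFP against 142 and 98.8 CPM with shPogz, the first close to the lower control. Cacna1a was at 158 and 159.9 CPM and 142 and 102 CPM. Their log2 fold changes were -0.35 (SE 0.25) and -0.38 (SE 0.27). Cacna1s alone was higher in both libraries, at 1.41 and 1.59 CPM with GFP against 1.78 and 2.57 CPM with shPogz. Of the other calcium channel partners, Cacnb4 was at 409 and 390.1 CPM and 372 and 339 CPM without overlap (log2 fold change -0.17, SE 0.11), and Cacna2d1 at 313 and 425 CPM and 374 and 238 CPM with overlap.

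Hcn2 was at 78.8 and 52.7 CPM with GFP against 55.4 and 50.1 CPM with shPogz, and the spread of the controls covered the first shPogz library (log2 fold change -0.31, SE 0.21). All 4 HCN genes were fitted below 0, with a median of -0.28.

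Much of this came from the second shPogz library, the one at the end of the scaling axis. Without it the median over the channel genes was -0.07, with 27 of 43 below 0, the calcium alpha1 median was -0.12 and the log2 fold change of Cacng8 was -0.33. Without the first shPogz library the channel genes' median was -0.28. The value of Scn1a was -0.19 without the first GFP library of the set. In the same libraries the summed neuronal markers were at 10188 and 10856 CPM with GFP against 10434 and 8374 CPM with shPogz, with all 16 genes below 0 and a median of -0.19. Astrocyte markers summed to 5796 and 6029 CPM and 5702 and 4584 CPM, with 11 of 12 genes below 0 and a median of -0.18, so both lists had medians close to the -0.17 of the channel genes. Microglial markers summed to 1286 and 1391 CPM and 1573 and 2701 CPM, and oligodendrocyte markers to 2681 and 3035 CPM and 3095 and 4556 CPM, highest in the second shPogz library in both cases. The channel genes summed to 54.2% and 51.0% of the neuronal marker sum in the controls and to 50.2% and 51.0% in shPogz. In the Adnp set these shares were 49.4% and 46.5% in the controls and 45.3% and 50.7% in shAdnp. The part of cell composition in the channel gene values was not tested.

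**Figure D3:**
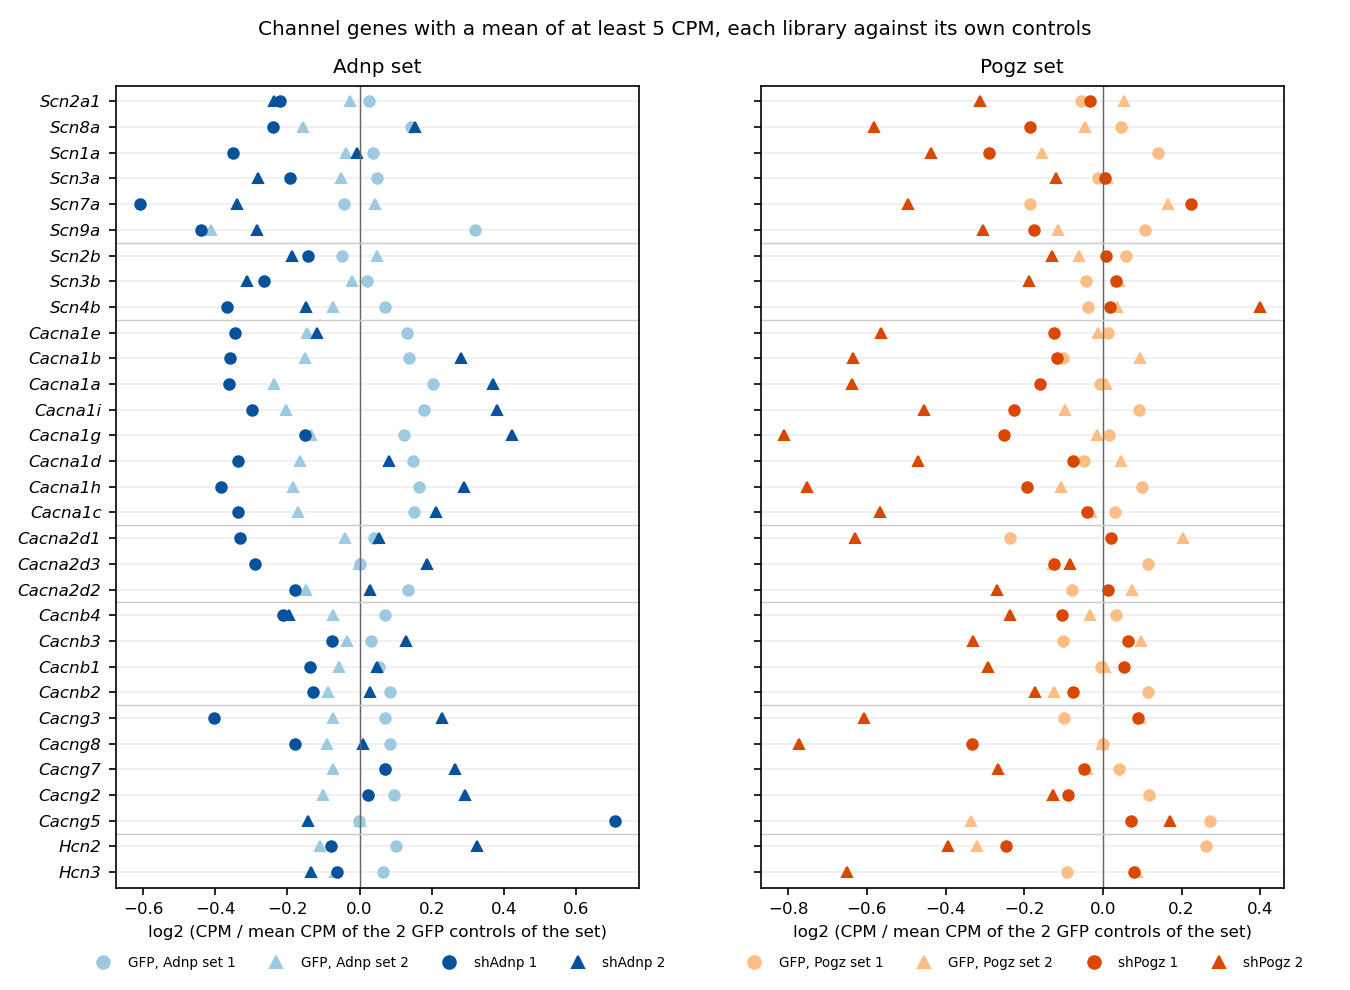
Log2 ratio of CPM in each library to the mean CPM of the 2 GFP controls of its set, for 31 channel genes with a mean of at least 5 CPM, with circles for replicate 1 and triangles for replicate 2. In the Adnp set the 2 shAdnp libraries separate on opposite sides of 0 for most calcium channel alpha1 genes, while in the Pogz set the second shPogz library is the lowest point for most genes and lies at the high end for Scn4b.

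Whether a channel gene responded differently in the 2 sets was tested directly, as the shPogz log2 fold change minus the shAdnp log2 fold change. None of the 43 genes passed an adjusted p of 0.05 in edgeR (percent called over all genes, 0%), DESeq2 or limma-voom. At an unadjusted p under 0.05 there were 0 with a lower shPogz value (background 2.41%) and 2 with a higher one (background 1.1%). The difference was below 0 for 31 of 43 genes with a median of -0.15, against 53.1% of all genes and a median of -0.02. It was below 0 for all 10 calcium channel alpha1 genes, with a median of -0.38. The median over all channel genes turned on single libraries: it was 0.04 without the second shAdnp library, -0.29 without the first, and -0.01 without the second shPogz library.

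Scn4b, whose protein supports the resurgent sodium current of fast-firing neurons, was at 88.6 and 80.2 CPM in the Adnp set controls, 65.4 and 76.0 CPM in shAdnp, 69.7 and 73.4 CPM in the Pogz set controls and 72.4 and 94.3 CPM in shPogz. It was below both controls in both shAdnp libraries and clearly above them only in the second shPogz library. The difference between the sets was 0.47 (SE 0.20, unadjusted p = 0.0397, edgeR adjusted p = 0.978), and 0.27 without the second shPogz library. Scn4b is also strongly expressed in the striatum, and a list of 10 striatal marker genes summed to 329 and 332 CPM in the Pogz set controls and 362 and 477 CPM in shPogz, with 10 of 10 genes above 0 and a median of 0.61. In the Adnp set the same list summed to 379 and 358 CPM with GFP against 324 and 321 CPM with shAdnp, and its part in the Scn4b value was not tested. Scn11a was the other gene (unadjusted p = 0.0301, edgeR adjusted p = 0.978), on counts of 4 and 3 in the Pogz set controls and 8 and 4 in shPogz. Cacna1g (-0.67, SE 0.32) and Cacng8 (-0.45, SE 0.22) came next, both with an edgeR adjusted p of 0.978. In 1 gene, Cacng7, the libraries did not overlap and the sets went opposite ways with shPogz lower (background 2.33%), and in 0 with shPogz higher (background 2.56%).

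**Figure D4:**
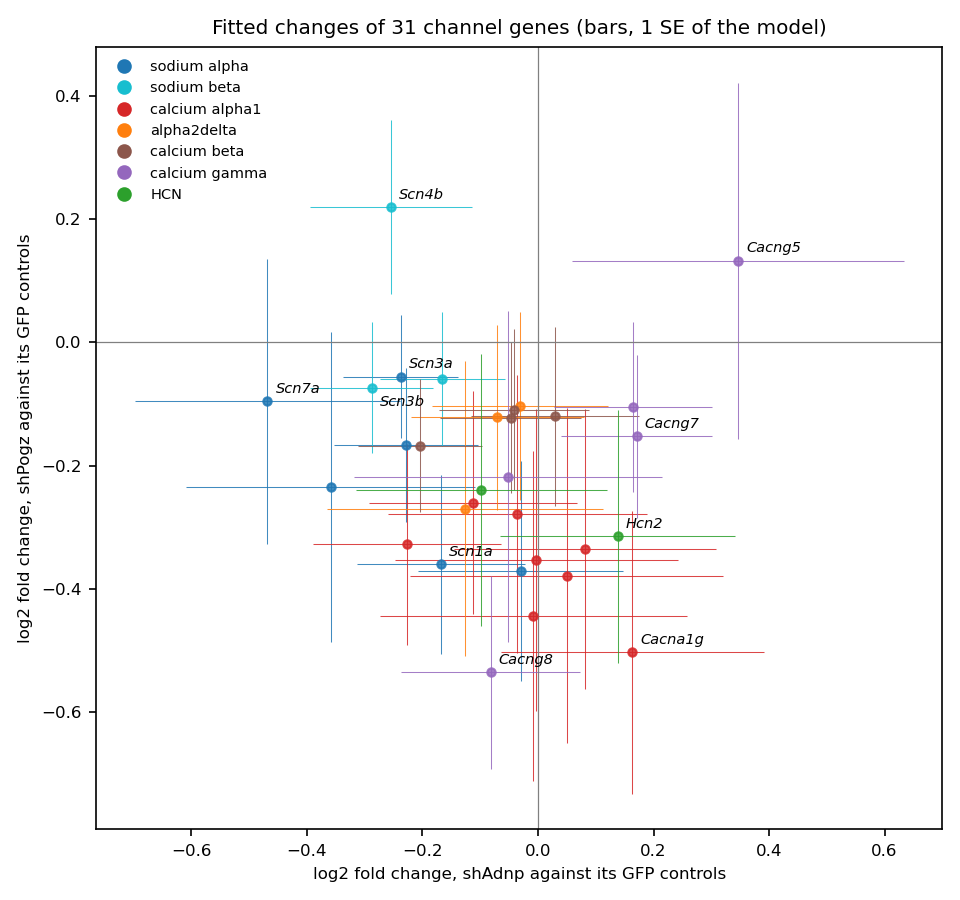
Fitted log2 fold changes of 31 channel genes with a mean of at least 5 CPM, shAdnp on the horizontal and shPogz on the vertical axis, each against its own GFP controls, with bars of 1 model SE. Colours give the family. The calcium alpha1 genes lie near 0 or on both sides of it for shAdnp and below 0 for shPogz, Cacng8 is the lowest for shPogz at -0.54, and Scn4b and Cacng5 are the only ones drawn above 0 for shPogz.

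An average knockdown effect was fitted over both sets with a term for the set, and it uses the same libraries as the single comparisons. Again 0 of 43 channel genes passed an adjusted p of 0.05 in edgeR (percent called over all genes, 0%), DESeq2 or limma-voom. At an unadjusted p under 0.05, 7 genes were lower (background 3.62%) and 1 was higher (background 8.84%), and 37 of 43 were below 0 with a median of -0.16, against 55.3% and -0.02 over all genes. In both sets, 2 genes were lower without overlap (background 5.31%), Cacnb4 among them, and 1, Cacna1s, was higher (background 7.12%).

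Cacnb4 was lower in 4 of 4 knockdown libraries than in the controls of their set, at a log2 fold change of -0.19 (SE 0.07, unadjusted p = 0.0233, edgeR adjusted p = 0.32). Pore-forming subunits abundant in cortical neurons had values of similar size: Scn1a at -0.26 (SE 0.10), Cacna1e at -0.28 (SE 0.11) and Scn2a1 at -0.20 (SE 0.08), with edgeR adjusted p of 0.323, 0.337 and 0.364. Cacng8 at -0.31 (SE 0.13) and Scn3b at -0.18 (SE 0.08) each drew mainly on 1 set, shPogz for the former and shAdnp for the latter. Cacna1s stood at 0.73 (SE 0.27) at levels of 0.605 to 2.57 CPM. All 14 sodium channel genes were fitted below 0 in the average, whereas 4 of the 7 gamma genes tested were above it. Leaving out the first shAdnp and the second shPogz library together, a choice made after seeing the data, brought the channel genes' median to 0.01 with 21 of 43 below 0.

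Both control groups received GFP virus and no hairpin, and their comparison shows how far channel genes differed between the sets in the absence of one. Here 0 of 43 channel genes passed an adjusted p of 0.05 in edgeR, while 1 gene of all those tested did (0.00574%), and DESeq2 and limma-voom called 0 channel genes. At an unadjusted p under 0.05, 1 channel gene was lower in the Pogz set (background 2.7%) and 0 were higher (background 4.65%). Libraries did not overlap for 15 genes lower in the Pogz set (background 22.3%) and 8 higher (background 21.2%), and the median over the channel genes was 0.01 with 21 of 43 below 0, against 48.2% of all genes. The sodium channel beta genes were all lower in the Pogz set controls, by log2 values from -0.24 for Scn4b to -0.15 for Scn3b, without overlap between the sets. Scn11a had the only unadjusted p under 0.05, with the counts given above. Cacnb4 differed by -0.22 (SE 0.11) and Cacna1s by 0.86 (SE 0.39), so for both genes the distance between the control groups was of the size of the knockdown differences. Without the first GFP library of the Adnp set the channel genes' median was 0.12 with 17 below 0, and without the second it was -0.11 with 32 below 0.

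In 3 of the 4 groups the channel genes lay mostly on 1 side between the 2 libraries of the group, with 36 of 43 lower in the second library of the Adnp set controls, 35 higher in the second shAdnp library, 35 lower in the second shPogz library and 22 lower in the second library of the Pogz set controls. The median log2 ratio of the second to the first library over the 43 genes was -0.14 in the Adnp set controls, 0.23 in shAdnp, -0.00 in the Pogz set controls and -0.23 in shPogz, while the medians over all genes were 0.04, 0.00, 0.01 and -0.01. For the calcium channel alpha1 genes the medians were -0.32, 0.61, -0.01 and -0.46 in the same order. The sodium beta genes had medians of -0.05, 0.09, 0.07 and -0.18. Neuronal markers had medians of -0.01, 0.09, -0.06 and -0.24. In both groups of the Adnp set and in shPogz, the alpha1 genes thus differed between replicates by more than the neuronal markers did. Oligodendrocyte markers went the other way from the alpha1 genes in 3 groups, with medians of 0.54, -0.94 and 0.60 in the Adnp set controls, shAdnp and shPogz. These ratios describe 1 pair of libraries each and carry no test.

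**Figure D5:**
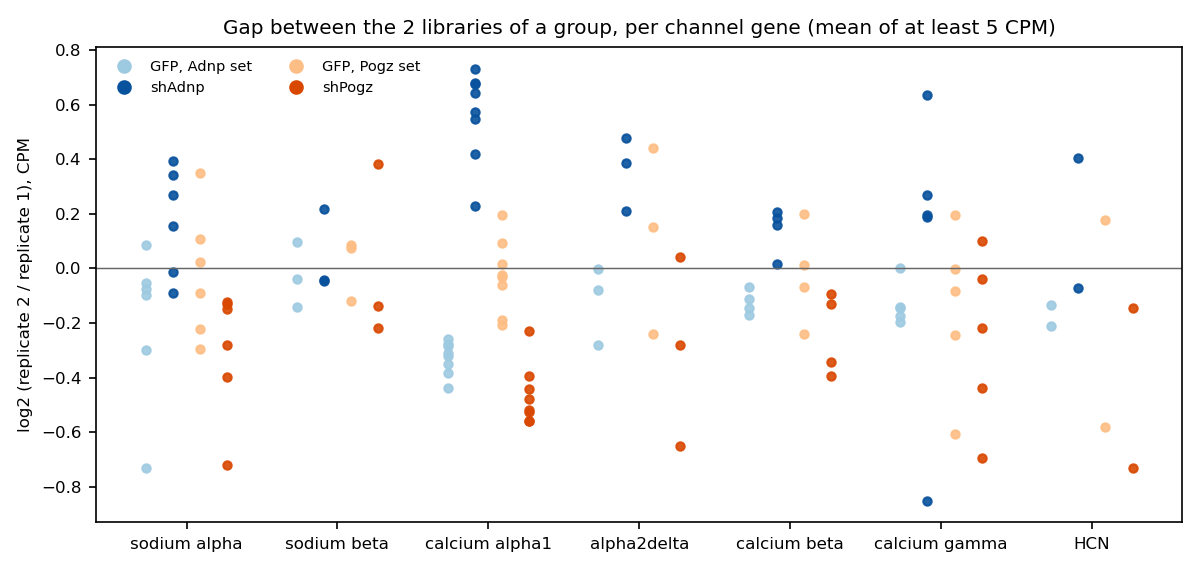
Log2 ratio of CPM in replicate 2 to replicate 1 for 31 channel genes with a mean of at least 5 CPM, by family on the horizontal axis and by group in colour. The calcium alpha1 genes are all below 0 in the Adnp set controls and shPogz and all above 0 in shAdnp, and the Pogz set controls scatter around 0.

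A further list held 34 genes, of which 33 were found and tested. Most were listed as genes whose products anchor, transport or modulate these channels. The list also holds Nalcn, Unc79 and Unc80, which belong to a separate leak channel. In shAdnp, 23 of 33 were below 0 with a median of -0.13, against 52.3% and -0.01 over all genes. Of the 33, 1 was lower at an unadjusted p under 0.05 (background 1.69%) and 1 higher (background 6.67%), and 11 were lower and 2 higher without overlap (background 21% and 20.4%). In shPogz, 29 of 33 were below 0 with a median of -0.19, against 53.6% and -0.02 over all genes. Of these 33, 2 were lower at an unadjusted p under 0.05 (background 2.65%) and 1 higher (background 4.05%), and 16 were lower and 2 higher without overlap (background 21.3% and 19%). In either comparison 0 passed an adjusted p of 0.05 in edgeR. Sptbn4, the spectrin that holds sodium channels at the axon initial segment, was at 185 and 133 CPM in the Pogz set with GFP against 125 and 107 CPM with shPogz (log2 fold change -0.46, SE 0.20, unadjusted p = 0.0482, edgeR adjusted p = 0.667). Gem and Rem2 encode small G proteins that bind calcium channel beta subunits, and their values lay on opposite sides of 0. Gem was at 2.55 and 2.87 CPM with GFP against 3.84 and 9.69 CPM with shPogz (log2 fold change 1.31, SE 0.48, unadjusted p = 0.0266, edgeR adjusted p = 0.667). Rem2 was at 6.37 and 4.41 CPM and 3.18 and 3.72 CPM (log2 fold change -0.63, SE 0.28, unadjusted p = 0.0487, edgeR adjusted p = 0.667). In the Adnp set, Rrad, a relative of Gem and Rem2, was at 1.65 and 2.44 CPM with GFP against 3.55 and 3.04 CPM with shAdnp (log2 fold change 0.69, SE 0.30, unadjusted p = 0.0442, edgeR adjusted p = 0.574). Flna, an actin-binding filamin, was at 101 and 101 CPM and 120.0 and 146 CPM (log2 fold change 0.40, SE 0.18, unadjusted p = 0.0519, edgeR adjusted p = 0.604). Caln1 encodes a neuronal calcium sensor whose place among the HCN channel partners is uncertain. It was at 81.3 and 73.3 CPM and 63.0 and 62.8 CPM (log2 fold change -0.30, SE 0.11, unadjusted p = 0.0256, edgeR adjusted p = 0.485). Filamin is also abundant in microglia and vessel cells, and in the Adnp set the mural cell markers summed to 217 and 235 CPM with GFP against 268 and 282 CPM with shAdnp (10 of 10 genes above 0, median 0.36). Endothelial markers summed to 288 and 289 CPM against 276 and 340.4 CPM (7 of 9 above 0, median 0.12). The part of these cells in the Flna value was not tested.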

How the data were processed

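The deposited files hold whole-number counts of reads per gene that the authors made from ribosome-depleted total RNA of bulk prefrontal cortex. STAR, featureCounts, DESeq2 and mm10 are named per the submitters' processing notes, while Cutadapt and TopHat2 against RefSeq mRNAs are named per the labels' protocols. The tool versions, the strand setting and which aligner made these counts: not given in the sources used here. Among counts of 1 to 20, 68.8% to 71.7% were even, as would occur if both mates of a pair were counted, and counting error may then be larger than the counts imply. In each library 25 symbols turned into dates, holding 0.306% to 0.337% of counts, and 2 blank rows were left out. The second Pogz knockdown library was matched to a column whose name carries the number 3.

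Counts of all 8 libraries were fitted together in R 4.3.3 with edgeR 4.0.16 (filterByExpr with a minimum count of 10, TMM scaling, robust glmQLFit, glmQLFTest), with Benjamini-Hochberg adjustment over 17415 genes and a threshold of 0.05. The biological coefficient of variation was 17.1%, with 4 residual degrees of freedom. CPM used the TMM library sizes. The scripts were tested on simulated data. Counts and medians cover all 43 tested channel genes, and the values of 3 genes are not reported here. The channel genes and all gene lists were chosen with earlier results of these data known. The other genes named with values were those with an unadjusted p under 0.05 or among the 4 smallest in a comparison, the gene with the highest level per kilobase in each family, and any listed under results for a closer look, and neighbours are given for contrast. Alternatives were DESeq2 1.42.0, limma-voom 3.58.1, other scalings, filters and thresholds, a replicate block and each library left out. Same-numbered libraries did not deviate together (correlations of 0.0021 and 0.031), so the numbers were not used as pairs.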

Additional observations from a re-analysis of the deposited data

Results flagged for a closer look

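Cacng7, which encodes an AMPA receptor partner of the gamma family, lay on opposite sides of its controls in the 2 sets. It was at 22.7 and 20.6 CPM in the Adnp set with GFP against 22.7 and 26.0 CPM with shAdnp, where the first library exceeded the higher control by a margin lost in rounding. In the Pogz set it was at 22.6 and 21.3 CPM with GFP against 21.2 and 18.2 CPM with shPogz. The shPogz log2 fold change minus the shAdnp log2 fold change was -0.32 (unadjusted p = 0.116, edgeR adjusted p = 0.978), so the difference did not pass the test. Of all genes tested, 2.33% showed the same arrangement of libraries.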

How the results depend on the processing

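No channel gene passed an adjusted p of 0.05 in any comparison under any alternative run. Over all genes tested, edgeR called 0 in each comparison except 1 between the control groups. DESeq2 called 417 genes for shAdnp, 101 for shPogz, 2 for the difference, 711 for the average and 73 between the control groups. The replicate numbers were not used as pairs in the main fit, and whether they pair the libraries was not settled. With a replicate block, edgeR called 175 genes for shAdnp, 31 for shPogz, 405 for the average and 18 between the control groups, and the channel genes' medians were -0.07, -0.17, -0.18 and 0.01. Between the control groups, 6 genes were called with no filter on low counts and 6 at an adjusted p under 0.10. With each library left out in turn, genes called ran from 0 to 8 for shAdnp, 0 to 153 for shPogz (the highest without the first shPogz library), 0 to 4 for the difference, 0 to 556 for the average (the highest again without the first shPogz library) and 0 to 6 between the control groups. The channel genes' median then ran from -0.26 to 0.068 for shAdnp, with 15 to 37 of 43 below 0, and from -0.29 to 0.040 for the difference, with 16 to 33 below 0. Between the control groups 17 to 32 were below 0. For shPogz the median ran from -0.28 to -0.07 and for the average from -0.21 to -0.07, all below 0. Leaving out the first shAdnp and second shPogz library together was added after the data had been seen. It gave 13 genes called and 15 channel genes below 0 for shAdnp, a median of 0.014 with 21 below 0 for the average, and 2 genes called between the control groups. Groups with 1 library left were assumed to vary like the others. The cause of these shifts was not tested. With 2 libraries a group, 95% confidence intervals of channel genes at 5 CPM or more reached from -0.99 to 1.00 on the log2 scale for shAdnp and from -1.07 to 0.79 for shPogz, and genes with under about 20 counts could not be compared.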
